A study of Homo sapiens with 18 samples.

Results

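The selenite comparison of RNA recovered with SBP2 rests on 12 of the 18 libraries of a Flag RNA immunoprecipitation sequencing (RIP-seq) study in HEK293T, a line from human embryonic kidney. Cells were transiently transfected with a Flag-SBP2 plasmid and either left without addition or given 100 nM sodium selenite 4 h later, and lysates were taken at 48 h. For each treatment 3 biological replicates gave an input library and a RIP library. The contrast was the log2 RIP-to-input difference with selenite minus that without. The remaining 6 libraries, inputs and RIPs of 3 Flag vector lysates without selenite, served as the background of the beads. The labels name both HEK293 and HEK293T as the cells, and the share of cells that took up the plasmid was not given in the sources used here. No Flag vector lysate with selenite was among the samples, so a change of the bead background with selenite and a change of recovery with SBP2 cannot be told apart.

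SBP2 binds SECIS elements, stem-loops in selenoprotein mRNAs, and takes part in recoding UGA stop codons as selenocysteine. Selenium supply is known to shape selenoprotein mRNA levels, since some of these mRNAs are degraded when UGA is read as a stop and are stabilised when selenocysteine is inserted. Sodium selenite is a source of selenium for this pathway. The comparison therefore asks whether selenium supply alters which RNAs come down with SBP2, apart from any change in how much of each RNA the lysate holds.

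Genes were identified in the counts by Ensembl ID alone. None of the 59792 genes of the reference table carried an Ensembl ID, so 0 of 242 listed genes, among them the selenoproteins and the markers of HEK293 and of other cells, were matched, and neither gene functions nor sequences are given. IDs are printed as deposited, at most 2 in each direction of a comparison. A level below is in CPM, counts scaled to a library of 1e+06 and by TMM factors (edgeR's correction for library composition), and a recovery is the log2 ratio of RIP to input CPM of 1 lysate.

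In the 6 SBP2 inputs the totals ran from 15.6 to 22.2 M counts without selenite and from 16.6 to 19.1 M with it. The RIP totals ran from 25.1 to 28.3 M without and from 20.0 to 26.2 M with selenite. Of 58676 IDs, 17678 passed the low-count filter. Across 10719 IDs at a mean log2 CPM from 3 upward, the median absolute difference in recovery between lysates of 1 treatment was 0.125 to 0.157 without selenite and 0.119 to 0.273 with it. Between the SBP2 treatments it was 0.12 to 0.283 over 9 pairs of lysates, against 0.407 to 0.512 between control and SBP2 lysates. Lysates of different SBP2 treatment thus differed, ID by ID, about as much as lysates of the same treatment. The selenite lysate of replicate 3 stood apart on the second principal component of the ratios, at -26.4 against -4.45 to 9.44 for the other SBP2 lysates. Replicate 3 was the lowest on this component in each treatment. It stood at -13.4 against 0.0673 and 17 in control lysates, and at -4.45 against 9.29 and 9.43 in SBP2 lysates without selenite. The group results are also given without the selenite lysate of replicate 3, and the recovery comparison called 0 IDs without it too.

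**Figure D1:**
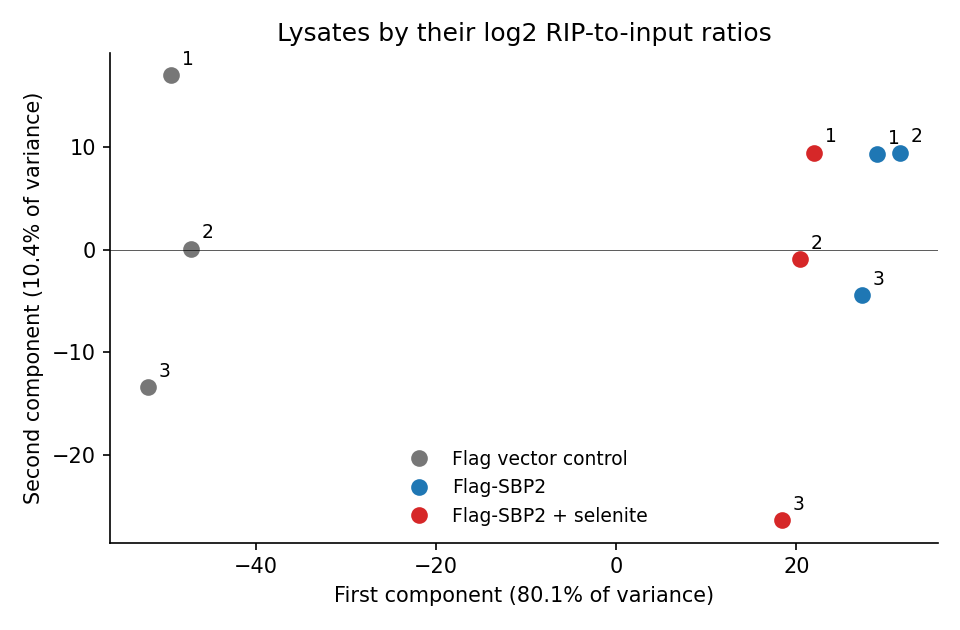
Principal components of the log2 RIP-to-input ratios of 10719 IDs, 1 point per lysate with its replicate number, coloured by treatment; the axes are component scores without a unit. On the first component (80.1% of the variance) the lysates with selenite, at 18.4 to 22, sit between the control lysates, at -52.0 to -47.2, and the SBP2 lysates without selenite, at 27.3 to 31.5.

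No single ID passed the test for a change of recovery with selenite. Of 17678 IDs, 0 were higher and 0 lower at an edgeR adjusted p under 0.05 (0% in each direction), and the smallest adjusted p was 0.989. DESeq2 and limma voom also called 0. An unadjusted p under 0.05 was reached by 318 IDs that were higher (1.8% of those tested) and 482 that were lower (2.73%), or 4.53% in all. In a fit of the 12 SBP2 libraries alone, without a block, 461 and 565 IDs reached it. In the same 12 libraries 583 and 703 did with the lysate as a block, which pairs each RIP with its own input, and 694 and 796 when replicate numbers formed the block. These 3 fits called 0 IDs, with a smallest edgeR adjusted p of 0.824, 0.5 and 0.307 in that order. The main fit, with its 0.989, did not pair each RIP with its input. The unadjusted count depended on single lysates. It was 488 without the SBP2 lysate of replicate 1, 462 without that of replicate 2, 1267 without the selenite lysate of replicate 1 and 1316 without the input of that lysate alone.

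The fit bounded the change of most abundant IDs. The 95% interval of the recovery difference lay within a 2-fold change in either direction for 13203 of 17678 IDs (74.7%). It did so for 1729 of 1737 IDs at a mean log2 CPM from 7 upward, 4790 of 4821 between 5 and 7, and 4085 of 4161 between 3 and 5. Within a 1.5-fold change the intervals of 1634, 4282 and 2982 of these IDs lay. Among the 4328 IDs with a mean log2 CPM under 1, 432 intervals lay within 2-fold, with a median standard error of 0.569, so changes of that size were not detectable for most rare IDs at this depth. Differences of 2-fold or more were fitted for 199 higher (1.13%) and 282 lower IDs (1.6%), and 477 of these 481 had a mean log2 CPM under 1.

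ENSG00000178980 rose with selenite by about the same factor in lysates and in RIPs. Its input level was 78.7, 53.9 and 62.0 CPM in the SBP2 lysates of replicates 1 to 3 and 152, 136 and 153 CPM with selenite. Its RIP level was 422, 447 and 409 CPM without and 955, 867 and 1040 CPM with selenite. In both kinds of library the treatments did not overlap. The input rose by 1.18 on the log2 scale (SE 0.106, edgeR adjusted p = 8.5e-07), and the RIP rose by 1.16 (SE 0.102, edgeR adjusted p = 5.84e-07).

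The recovery of ENSG00000178980 was 2.42, 3.05 and 2.72 without and 2.65, 2.68 and 2.76 with selenite. These values overlap. The difference was -0.02 (95% interval -0.32 to 0.28, edgeR adjusted p = 0.995), an interval that excludes a 1.5-fold change in either direction. In Flag vector lysates the recovery of this ID was -2.45, -2.13 and -2.33. It was the only ID of 17678 that passed in RIP with against without selenite (0.00566% higher, 0% lower).

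Few IDs passed in the lysates. In inputs with against without selenite 3 IDs were higher (0.017%) and 0 lower in edgeR's test over 18 libraries, and 4 and 7 in the 12 SBP2 libraries when replicate numbers formed a block, against 3 and 0 in these libraries without it. Without the SBP2 lysate of replicate 2 only 1 ID was called. In these inputs 224 IDs (1.27%) were higher and 307 (1.74%) lower at an unadjusted edgeR p below 0.05. CPM are shares of a library, so fewer cells and less RNA per cell cannot be told apart, nor can a change of all RNAs together be seen.

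ENSG00000233276, the ID with the next smallest p in the inputs, stood at 269, 260 and 275 CPM without selenite and at 371, 384 and 468 CPM with it. It rose by 0.61 on the log2 scale (SE 0.0845, edgeR adjusted p = 0.00173), and the inputs did not overlap. In the RIPs it stood at 1540, 1690 and 1640 CPM without and 2290, 2020 and 2150 CPM with selenite, a difference of 0.41 (SE 0.0835, edgeR adjusted p = 0.0961). Its recovery was 2.52, 2.71 and 2.58 without and 2.63, 2.40 and 2.20 with selenite. The recovery difference of -0.20 did not pass (95% interval -0.44 to 0.04, edgeR adjusted p = 0.989). The other called ID differed by 0.62 in the inputs (SE 0.0957, edgeR adjusted p = 0.00605), 0.39 in the RIPs (edgeR adjusted p = 0.0961) and -0.23 in recovery (95% interval -0.50 to 0.04). Its inputs stood at 27.2, 27.3 and 29.8 CPM without and 38.7, 40.7 and 50.2 CPM with selenite. These values ran close to parallel with those of ENSG00000233276. Whether the 2 IDs share reads was not tested, so their calls may not be separate. All 3 called IDs had a mean log2 enrichment over control of 3 or more. This class held 56 of the 13350 IDs at a mean log2 CPM from 1 upward. The inputs compared here also enter that enrichment.

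**Figure D2:**
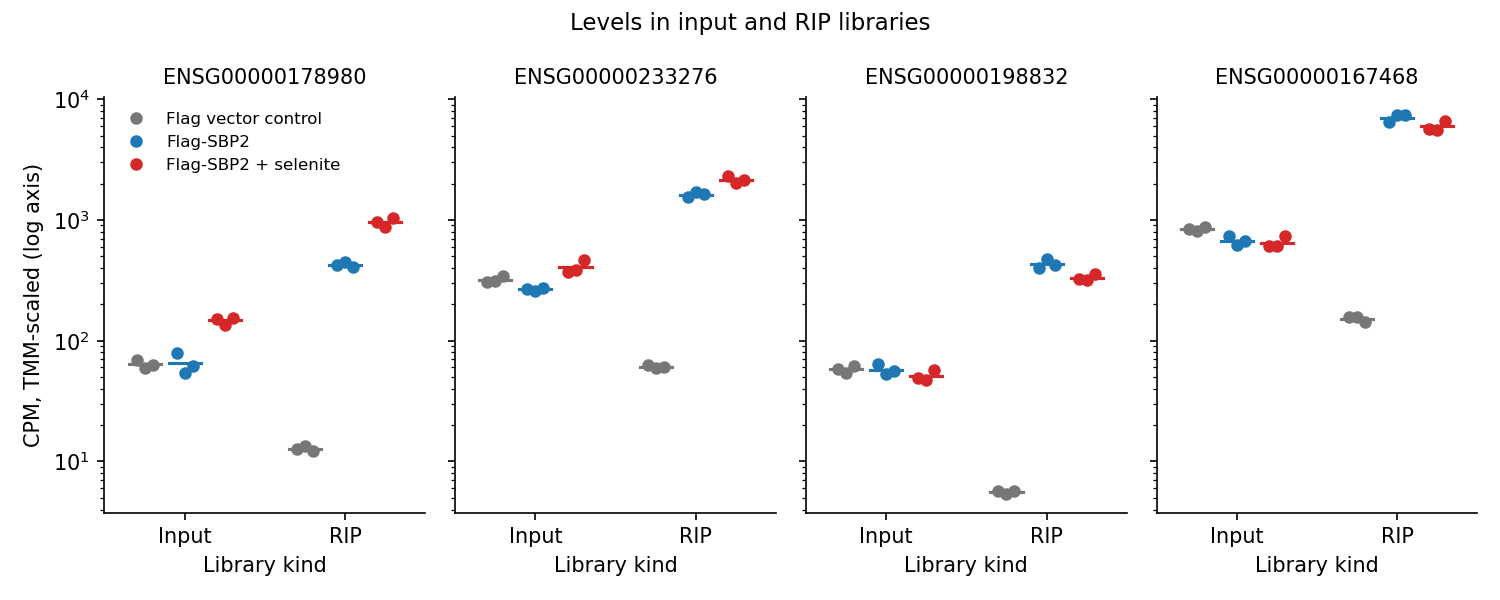
CPM (TMM-scaled, log axis) in input and RIP libraries of 4 IDs, with 1 point per library and a bar at the mean of 3 libraries for the Flag vector control, Flag-SBP2, and Flag-SBP2 with selenite. ENSG00000178980 is higher with selenite in inputs and RIPs alike, and in all 4 IDs the control RIPs lie below the control inputs while the SBP2 RIPs lie above their inputs.

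The 2 IDs highest in enrichment over control were chosen on both SBP2 treatments together. High recovery with selenite was thus part of the choice. ENSG00000198832 had recoveries of 2.66, 3.15 and 2.93 without selenite and 2.72, 2.74 and 2.62 with it, against -3.33, -3.31 and -3.41 in control lysates. The SBP2 treatments overlapped, and the difference was -0.22 (95% interval -0.49 to 0.04, edgeR adjusted p = 0.989). ENSG00000167468 had recoveries of 3.15, 3.57 and 3.44 without and 3.23, 3.20 and 3.17 with selenite, against -2.41, -2.36 and -2.62 in control lysates. Its difference was -0.19 (95% interval -0.45 to 0.08, edgeR adjusted p = 0.989). For both IDs the intervals exclude a fall of 1.5-fold or more and include 0.

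Among IDs at a mean log2 CPM from 1 upward whose lysates did not overlap between treatments, those with the smallest unadjusted p are given as a description, since none passed the adjustment. Over all 17678 IDs, the 3 recoveries with selenite lay above the 3 without in 916 (5.18%) and below them in 1374 (7.77%). ENSG00000184900 had recoveries of 1.32, 1.33 and 1.27 without and 0.85, 0.94 and 0.84 with selenite, a difference of -0.43 (SE 0.103, edgeR adjusted p = 0.989). Its inputs held 216 ± 8.8 and 228 ± 11.7 CPM and its RIPs 534 ± 25 and 418 ± 21.7 CPM (SD, n = 3). ENSG00000204619 had recoveries of 0.35, 0.30 and 0.19 without and -0.17, -0.24 and -0.09 with selenite, a difference of -0.45 (SE 0.113, edgeR adjusted p = 0.989). This ID lay above its input without selenite and below it with selenite in every lysate. In control lysates both IDs were below input, at -0.77 ± 0.057 and -1.4 ± 0.08 (SD, n = 3).

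On the higher side the leading IDs were rarer. ENSG00000113369 had recoveries of -0.33, -0.57 and 0.40 without and 0.79, 0.55 and 1.26 with selenite, a difference of 1.05 (SE 0.268, edgeR adjusted p = 0.989). Its RIPs held 5.54 ± 0.596 and 6.5 ± 0.558 CPM, and its inputs 6.33 ± 1.5 without and 3.54 ± 0.577 CPM with selenite (SD, n = 3). The larger part of its difference thus lay in the inputs, at -0.83, against 0.23 in the RIPs. ENSG00000151553 had recoveries of -0.04, -0.12 and 0.21 without and 0.41, 0.66 and 0.78 with selenite, a difference of 0.62 (SE 0.163, edgeR adjusted p = 0.989). In control lysates its recovery was higher than in any SBP2 lysate, at 1.12, 0.99 and 1.03.

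**Figure D3:**
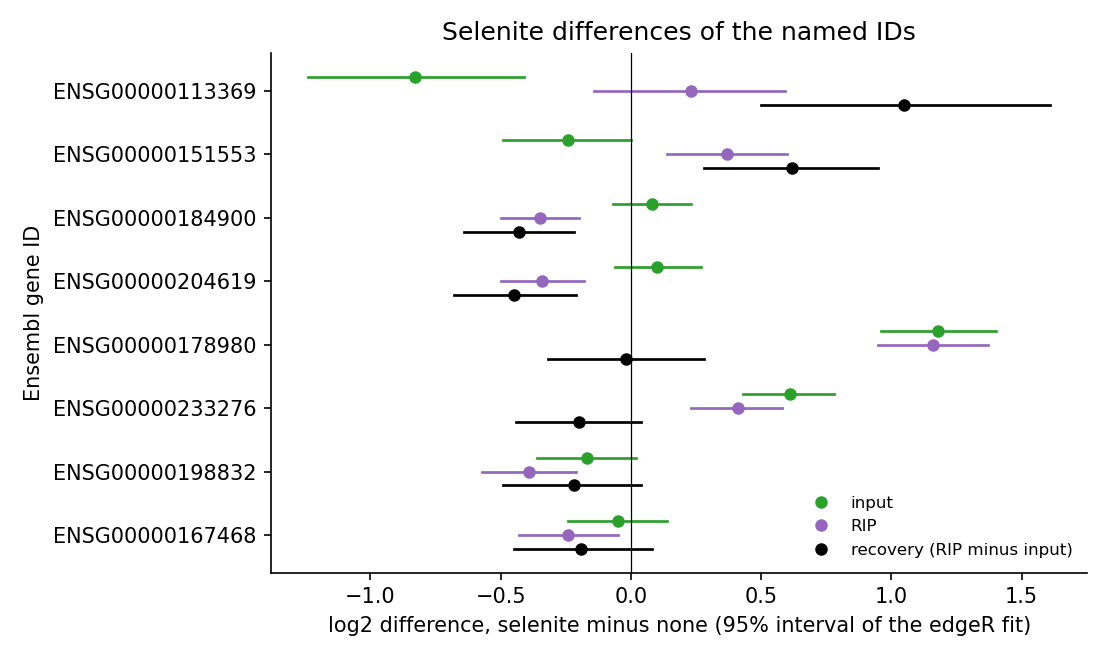
Selenite minus no selenite, on the log2 scale, in inputs, in RIPs and in recovery (RIP minus input) for 8 IDs, with the fitted value as a point and its 95% interval from the edgeR fit as a line. For ENSG00000178980 the input and RIP differences are 1.18 and 1.16 and the recovery difference is -0.02, while for ENSG00000184900 and ENSG00000204619 the recovery difference follows the RIPs.

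Although no ID passed alone, the direction of the differences varied with the strength of enrichment. IDs at a mean log2 CPM from 1 upward were grouped by their enrichment over control averaged over both SBP2 treatments, which gives each treatment the same weight. The SBP2 libraries enter both the grouping and the difference, so the groups are described without a test. Over all 13350 such IDs the median recovery difference was 0.001, and 49.6% were lower with selenite. Between an enrichment of 1 and 2 the median was -0.179, with 844 of 1003 IDs lower. Between 2 and 3 it was -0.211, with 182 of 198 lower, and at 3 or more it was -0.203, with 50 of 56 lower. The 12 IDs at 4 or more had a median nearer 0, at -0.124, with 9 of 12 lower and none at an unadjusted edgeR p below 0.05. At the other end, 285 IDs with an enrichment under -1 had a median of 0.188, and 230 of them were higher. The lowest enrichment inside the group of 56 was 3.004 and the highest below it 2.967.

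**Figure D4:**
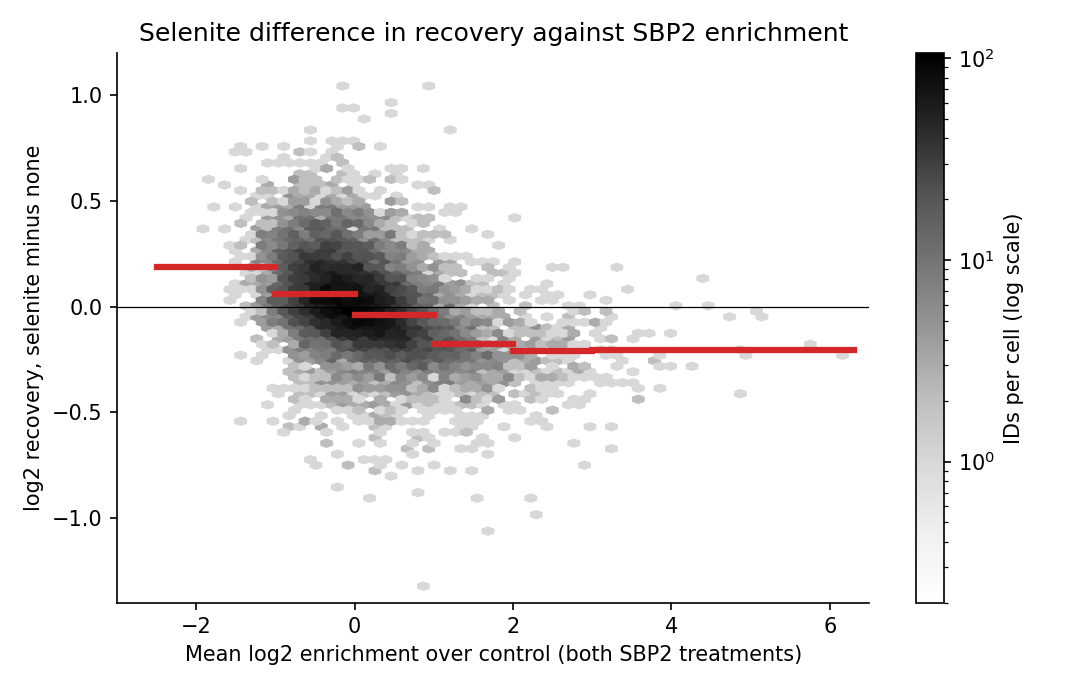
Recovery difference (selenite minus none, log2) against the mean log2 enrichment over control of 13350 IDs, as cells shaded by the number of IDs (log scale), with red bars at the median of each group of enrichment. The medians run from 0.188 below -1 to -0.203 at 3 or more, and differ little between the 3 groups above an enrichment of 1.

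Each lysate showed this order. For the 1003 IDs with an enrichment of 1 to 2, the mean recovery was 0.452, 0.476 and 0.460 in the SBP2 lysates without selenite and 0.276, 0.298 and 0.337 with it. For the 198 IDs at 2 to 3 it was 0.995, 1.031 and 1.035 without and 0.763, 0.782 and 0.848 with selenite. For the 56 IDs at 3 or more it was 1.698, 1.820 and 1.782 without and 1.524, 1.516 and 1.646 with selenite. In these 3 groups every lysate with selenite lay below every lysate without it. For the 285 IDs under -1 the lysates with selenite, at 0.453, 0.518 and 0.710, lay above those without, at 0.353, 0.341 and 0.436.

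The values with selenite lay between those without it and those of the control. Control lysates had means of -0.96 ± 0.016, -1.47 ± 0.04 and -2 ± 0.11 in the 3 enriched groups and 1.63 ± 0.12 in the group under -1 (SD, n = 3). The distance from control with selenite was 88.8% of that without at an enrichment of 1 to 2, 91.0% at 2 to 3 and 94.6% at 3 or more. For the group under -1 it was 85.3%. The differences in recovery were thus small beside the enrichment itself.

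**Figure D5:**
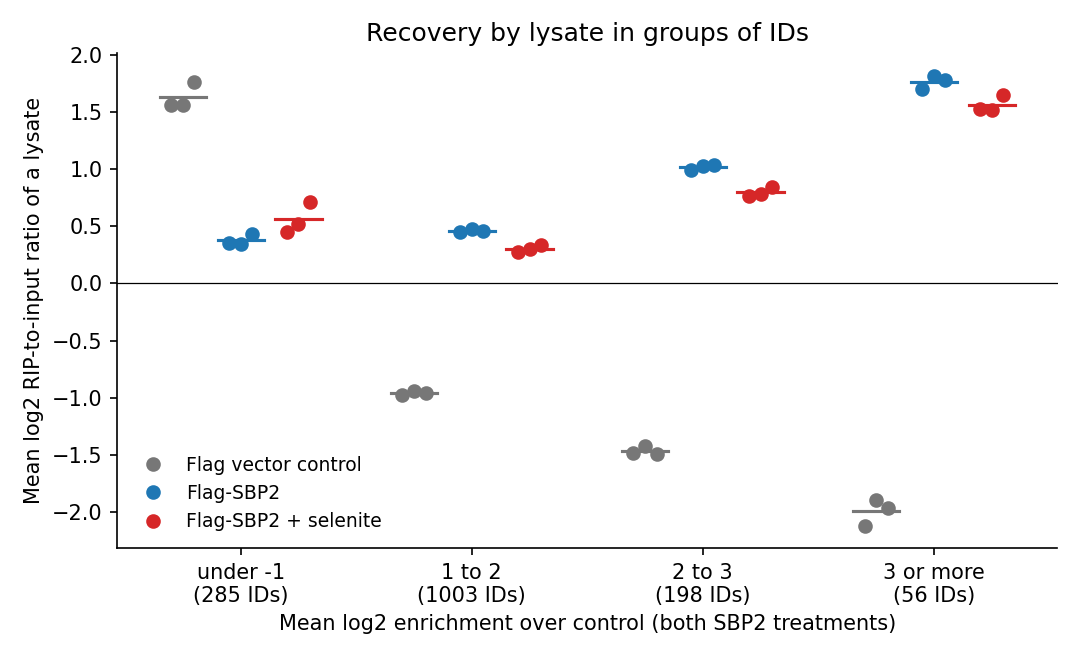
Mean log2 RIP-to-input ratio of each lysate in 4 groups of IDs by mean enrichment over control, with 1 point per lysate and a bar at the mean of 3 lysates. In each group the 3 selenite lysates lie between the control lysates and the SBP2 lysates without selenite, and do not overlap with either.

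The difference lay in the RIP libraries more than in the inputs. In the groups at 1 to 2, 2 to 3 and 3 or more, the median RIP difference was -0.166, -0.236 and -0.275, and the median input difference 0.001, -0.004 and -0.061. Under -1 these medians were 0.121 for RIPs and -0.057 for inputs. In RIP with against without selenite 0 IDs passed as lower, but 799 had an unadjusted edgeR p under 0.05 and were lower (4.52%), against 264 that were higher (1.49%). Of the 673 lower ones at this abundance, 464 (68.9%) had an enrichment of 1 or more, a class that held 9.42% of all such IDs. At an adjusted p under 0.1 edgeR listed 4 higher and 26 lower IDs, and 25 of the lower ones (96.2%) had an enrichment of 1 or more, against 10.3% of all tested IDs. The RIPs compared here also enter the enrichment, so these shares are given without a test. Higher IDs can be strongly enriched too, such as ENSG00000178980 and ENSG00000233276. Calls of lower IDs in the RIPs depended on the fit, at 26 with the 12 SBP2 libraries alone, 78 if rare IDs were not filtered out, 116 with DESeq2 and 29 with limma voom.

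IDs whose lysates did not overlap followed the same order. These counts come from the SBP2 libraries that also set the enrichment, so they are not separate evidence and were not tested. Among 1257 IDs with an enrichment of 1 or more, all 3 recoveries with selenite were below all 3 without in 471 (37.5%) and above in 6 (0.477%). Over all 13350 IDs at a mean log2 CPM from 1 upward these shares were 8.55% and 5.42%. Of the 367 IDs at this abundance that were lower in recovery at an unadjusted p under 0.05, 235 (64.0%) had an enrichment of 1 or more. Of the 252 that were higher, 1 did, 191 (75.8%) lay between -1 and 0 and 27 (10.7%) under -1, classes that held 46.7% and 2.13% of all such IDs.

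A similar order was seen when the grouping and the difference were read in different replicate numbers. All lysates came from the same experiment, and the limits of the groups were set with earlier results known. This too is a description without a test. When IDs were grouped on 2 replicate numbers and the difference was taken in the third, the median at an enrichment of 1 to 2 was -0.18, -0.20 and -0.15 for replicates 1, 2 and 3. At 2 to 3 it was -0.24, -0.26 and -0.19, and at 3 or more -0.18, -0.31 and -0.16. Under -1 it was 0.09, 0.15 and 0.26. The median over all IDs of 1 or more log2 CPM was 0.01, 0 and -0.01 in these lysates.

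Grouping by the control lysates alone, which share no library with the selenite contrast, gave a smaller range. The 747 IDs with a mean control recovery under -2 had a median difference of -0.05, and 59.3% of them were lower. In 15.4% of these IDs the 3 recoveries with selenite lay below the 3 without, and in 5.22% above. Between -2 and -1 the median was -0.055 over 1930 IDs, and between 1 and 2 it was 0.068 over 1795 IDs. The 134 IDs with a control recovery of 2 or more had a median of 0.117, and 20.1% of them were lower. Without overlap, 0% of these IDs lay below and 20.1% above.

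Without the selenite lysate of replicate 3, the median differences were -0.175, -0.245 and -0.261 in the groups at 1 to 2, 2 to 3 and 3 or more. The groups were kept as set with all lysates. With 2 selenite lysates left, 627 IDs of an enrichment of 1 or more lay below all 3 without selenite and 11 above. A lack of overlap is easier to reach with fewer lysates, so these counts cannot be compared with those of all lysates. Leaving out any 1 lysate gave 540 to 638 IDs without overlap in either direction. Shares over all IDs were not computed for these counts or with thinning. Under -1 the median fell from 0.188 to 0.107, and to 0.123 without the input of that lysate alone. RIP totals ran lower with selenite, at 20.0 to 26.2 M against 25.1 to 28.3 M, though these ranges overlapped. With all libraries thinned to the smallest total, the 1257 IDs of an enrichment of 1 or more gave 442 below and 8 above. The plasmid's own transcript was not looked up, for want of gene names. ENSG00000187742, the ID with the largest fitted rise of SBP2 inputs over control inputs (51.3-fold), stood at 3100, 2810 and 2580 CPM in the inputs without selenite and at 3470, 3280 and 2380 CPM with it. These inputs overlapped, with a difference of 0.11 (95% interval -0.13 to 0.35, edgeR adjusted p = 0.985). Its recovery differed by -0.07 (95% interval -0.41 to 0.27, edgeR adjusted p = 0.995).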

How the data were processed

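RNA was sequenced from 18 input and RIP libraries. The authors deposited whole-number counts per Ensembl gene ID, 1 column per library. Trim Galore 0.6.6, STAR 2.7.6a, featureCounts 2.0.1 and GRCh38 (hg38) are named in the submitters' processing notes; for the annotation, the strand setting and multi-mapping reads nothing was given in the sources used here, so overlapping genes, paralogs and pseudogenes may share reads. The labels' protocols state that anti-Flag beads took up 4 mg of protein over 5 h and were washed in 300 and 500 mM KCl, and that the input came from the same sample before the beads were added.

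IDs were kept by filterByExpr (minimum count 10, minimum total 15). Counts were scaled by TMM and tested with edgeR 4.0.16 (R 4.3.3), a two-sided quasi-likelihood test of group means over 18 libraries, with Benjamini-Hochberg adjustment over 17678 IDs and a threshold of 0.05. Standard errors and 95% intervals came from the test statistic. They cover the spread between replicate libraries, with RIP and input taken as unpaired. They are not the spread of recovery between lysates. Per-lysate recoveries used log2 CPM with a prior count of 2. DESeq2 1.42.0, limma voom 3.58.1, other scalings, filters, fits and thinning were alternatives. The script was tested on simulated data.

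Groups were set by title. Pairs of replicates had a chi-square per degree of freedom of 4.81 to 27.3, so none was counted as a duplicate. Input and RIP of 1 lysate are paired by protocol, although their deviations correlated at -0.23 to 0.47. For selenite lysates 1 and 3 and control lysate 1, the input correlated higher with a RIP of another number. The values were 0.19 against 0.13, 0.2 against -0.23 and 0.22 against 0.18 in that order. The per-lysate recoveries thus rest on the protocol for their pairing. Same-numbered lysates with and without selenite correlated at 0.2 to 0.6 in recovery, 0.41 to 0.6 in inputs and 0.061 to 0.45 in RIPs. For replicate 2 another number correlated higher, at 0.34 against 0.2 in recovery and 0.069 against 0.061 in RIPs. The main fit used group means without either pairing, and the lysate and the replicate number entered as blocks in alternative fits only. The IDs named were the 2 of smallest p in each direction among non-overlapping IDs at a mean log2 CPM from 1 upward, the first 2 called in inputs and RIPs, and the 2 highest in enrichment over control. ENSG00000187742 was added after its values were seen. Members, lists and groups were chosen with earlier results of these data known. The 16 gene lists and the sets of selenoproteins and cell markers could not be matched to IDs and were not used.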

Additional observations from a re-analysis of the deposited data

How the results depend on the processing

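The recovery comparison was refitted under 29 alternatives. It called 0 IDs in each except with no low-count filter, which called 1 of 35033, lower with selenite, and DESeq2 gave the smallest adjusted p with the filter kept, at 0.109. The count at an unadjusted p under 0.05 was 800 and rose to 1408 without a filter. It was 1026 with 12 libraries in the fit and no block, and in those 12 libraries 1286 with the lysate as a replicate block and 1490 with the number as a replicate block; it ran from 462 to 1316 when a library or lysate was left out. RIP against RIP called 1 ID in the main analysis, 28 with 12 libraries in the fit, 120 with DESeq2, 33 with limma voom, 83 without a filter and 167 with 12 libraries and the number as a block (5 higher and 162 lower), where same-numbered RIPs correlated at 0.061 to 0.45. Input against input called 3 IDs, 37 without a filter, 11 with 12 libraries and the number as a block, and 1 to 3 when a library or lysate was left out. The median recovery difference at an enrichment of 1 to 2 was -0.214 with upper-quartile factors and -0.192 to -0.149 when a library or lysate was left out. At 2 to 3 it was -0.259 to -0.195 when a library or lysate was left out. No median of a group changed sign under any alternative. The groups were kept as set in the main analysis with all lysates, so this stability is partly built in. The count of IDs without overlap at an enrichment of 1 or more ranged from 413 to 532 over scalings, prior counts of 0.5 and 5 and thinning. Only ENSG00000178980, with a difference near 0, changed sign, at -0.19 to 0.13 when a library or lysate was left out; none of the named IDs passed in recovery under any alternative (adjusted p from 0.109 to 1). Scaling moved the median of all IDs between -0.038 and 0.014. The results planned for selenoproteins were not run, since no ID could be matched. Depth limits the rare IDs, and 3 lysates a treatment limit all of them.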
